A study of Homo sapiens with 12 samples.

Results

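PIGR, GPR15LG and AOC1 are 3 genes best known from mucosal surfaces, and they are described here across 4 groups of squamous carcinoma cells. They were chosen by their levels and everolimus differences on these same arrays, so those values are given as a description without a test. Each gene has 1 annotated probe set, and the 3 are among 14884 named genes in the table. All 3 passed the filter on low levels, as did 10613 genes in all. The groups were A431 cells with everolimus, A431 cells with DMSO, HSC-1 cells with everolimus and HSC-1 cells with DMSO. Everolimus, an inhibitor of mTOR complex 1 related to rapamycin, was given at 100 nM for 72 h, and DMSO is its solvent. Both lines are labelled as skin squamous cell carcinoma, each is 1 established line, and each group has 3 arrays. The stated subject is resistance to everolimus, and neither line is labelled as the resistant one. Separate cultures are not mentioned for the 3 arrays of each group, so the spread between them may be technical.

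PIGR encodes the polymeric immunoglobulin receptor, which binds dimeric IgA and pentameric IgM at the basolateral side of an epithelial cell and carries them to the lumen, where its outer part is cut off as secretory component. GPR15LG encodes a small secreted peptide of colon and squamous epithelium that binds GPR15, a receptor that guides T cells into these tissues. AOC1 encodes diamine oxidase, a secreted copper enzyme that oxidises histamine and the polyamine putrescine, best known from gut, kidney and placenta.

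The 250 bases before the start of each gene are printed below because these genes were lower together after everolimus in A431. They are from RefSeq, build GRCh38.p14, at chr1:206946467-206946716 on the minus strand for PIGR, chr10:84173551-84173800 on the plus strand for GPR15LG and chr7:150852267-150852516 on the plus strand for AOC1. Capitals mark a TATA box or a kappaB core.
PIGR: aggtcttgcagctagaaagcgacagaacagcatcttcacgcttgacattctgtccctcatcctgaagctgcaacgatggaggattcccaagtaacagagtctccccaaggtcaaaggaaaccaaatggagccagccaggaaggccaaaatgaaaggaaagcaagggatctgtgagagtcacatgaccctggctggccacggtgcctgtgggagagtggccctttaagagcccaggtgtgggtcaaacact
GPR15LG: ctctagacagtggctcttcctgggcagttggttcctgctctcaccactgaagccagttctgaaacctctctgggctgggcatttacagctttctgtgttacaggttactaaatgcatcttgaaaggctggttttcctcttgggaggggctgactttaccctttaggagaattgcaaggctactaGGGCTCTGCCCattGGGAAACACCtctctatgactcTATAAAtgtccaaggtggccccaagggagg
AOC1: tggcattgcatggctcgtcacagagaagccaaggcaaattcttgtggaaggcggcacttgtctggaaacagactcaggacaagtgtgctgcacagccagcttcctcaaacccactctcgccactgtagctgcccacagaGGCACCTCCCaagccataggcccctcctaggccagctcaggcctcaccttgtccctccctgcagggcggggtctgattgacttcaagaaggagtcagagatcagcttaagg

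The search covered both strands from 250 bases before to 50 bases after each start. GPR15LG held a TATA box (TATAAA) whose first base lay 30 bases before the start, and 11.5% of 35116 RefSeq promoters of the same length held one. The kappaB core, searched as GGG, any 5 bases and CC, was found in GPR15LG at 66 and 52 bases before the start on the gene strand, with a match on the other strand from base 65 that covers nearly the same letters. AOC1 held 1 at 111 bases before the start on the other strand. With these letters the core was also present in 58.7% of all promoters. The motifs AP-1 (TGANTCA, in 7.71% of promoters), interferon response element core (GAAA, any 2 bases and GAAA, 3.57%), FOXO (GTAAACA, 3.42%), E-box (CACGTG, 7.26%), STAT (TTCNNNGAA, 7.66%), C/EBP core (TTGCNNAA, 10.5%) and GRHL (AACNNGTT, 3.52%) had 0 matches in the 3 windows, which says only that these letters are not there. No 2 different motifs overlapped.

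Values are log2 expression made with RMA, which equalises the arrays, so array medians of 4.34 to 4.39 do not measure quality. Over 53617 probe sets, the correlation within a group was 0.989 to 0.992. It was nearly as high across the treatments of a line, with a range from 0.987 up to 0.991. Array quality was not tested. The array median serves as the mark of a low level, and 10613 of 14884 named genes lay above it on at least 3 arrays. A marker above it is therefore no sign of a cell type by itself. Both lines carried squamous markers: KRT5, a basal keratin, averaged 9.33 to 9.57 and its partner KRT14 9.67 to 10.1 over the 4 groups, and all 10 named squamous markers of 20 listed lay above the array median in each group. Of 14 named markers of columnar and intestinal epithelium, 11 lay above it in both A431 groups and 12 in both HSC-1 groups, and their mean level overlapped between all groups (5.48 to 5.55 in A431 with everolimus, 5.45 to 5.60 in A431 with DMSO, 5.51 to 5.61 in HSC-1 with everolimus and 5.50 to 5.70 in HSC-1 with DMSO). Within that list the lines differed in both directions in DMSO. The stem cell gene OLFM4 averaged 5.45 in HSC-1 and 3.44 in A431, but lay below the array median on every A431 array and passed the level filter through HSC-1. The adhesion protein EPCAM averaged 7.86 in HSC-1 and 8.95 in A431 (adjusted p = 1.09e-12). The gut structural protein VIL1 averaged 4.21 to 4.28 over the 4 groups and lay above the array median on 1 of 12 arrays.

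In A431, all 3 genes were lower with everolimus, by about the same amount. PIGR had levels of 5.38, 5.44 and 5.65 in A431 with everolimus, against 6.90, 6.63 and 6.48 in A431 with DMSO. The groups were separated by a gap of 0.83, and the log2 difference was -1.18 ± 0.13 (moderated SE), or 2.27-fold lower. GPR15LG had levels of 5.92, 5.86 and 5.98 in A431 with everolimus, against 7.12, 7.16 and 7.10 in A431 with DMSO. Its arrays were the tightest of the 3 genes in both A431 groups, with SDs of 0.06 in everolimus and 0.03 in DMSO, and the difference of -1.20 ± 0.11 (2.30-fold lower) left a gap of 1.11. AOC1 had levels of 6.34, 5.94 and 6.13 in A431 with everolimus, against 7.02, 7.13 and 7.28 in A431 with DMSO. Its difference was -1.01 ± 0.15 (2.01-fold lower), with a gap of 0.69. Some markers fell in the same contrast. The mean level of the squamous list was 8.44 to 8.46 in A431 with everolimus and 8.61 to 8.67 in A431 with DMSO. Of its 10 tested members 4 fell, where 4.33% of all genes did. They were KRT15 (by 0.52), DSG3 (by 0.46), KRT14 (by 0.29) and SFN (by 0.14). Of 4 tested plasma cell and B cell markers, SDC1, which epithelium also expresses, was the 1 that fell (by 0.46, adjusted p = 7.27e-06), and MZB1, XBP1 and DERL3 did not pass. CD68 was the 1 of 5 tested leukocyte markers that fell (by 0.20). Of 12 tested columnar and intestinal markers, 0 passed. Their part in the differences of the 3 genes was not tested. In these extracts fewer cells that express a gene and less of its RNA per cell cannot be told apart.

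**Figure D1:**
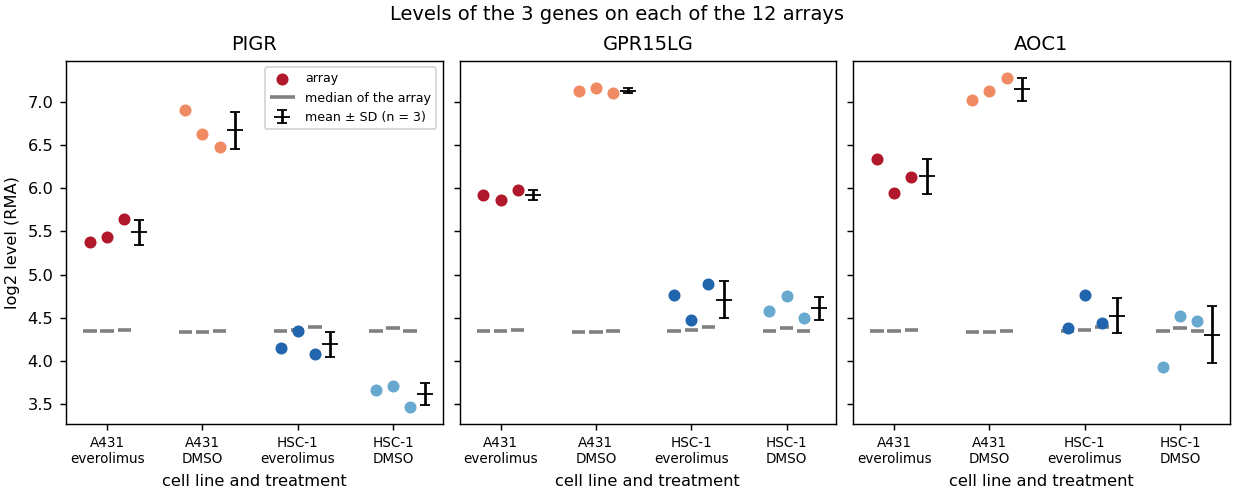
Log2 level (RMA) of PIGR, GPR15LG and AOC1 on each of the 12 arrays by cell line and treatment, with points for arrays, black bars for the mean ± SD (n = 3) and grey ticks for the median of each array. The A431 arrays with everolimus lie between those with DMSO and the HSC-1 arrays for each gene, and PIGR lies below the array median on all 6 HSC-1 arrays.

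All 3 genes stayed above the array median on the 3 A431 arrays with everolimus, where their means were 1.14 (PIGR), 1.57 (GPR15LG) and 1.78 (AOC1) log2 units over it. The choice of the genes used this contrast, so nothing is read from their ranks: counted from the largest decrease, GPR15LG was number 5, PIGR number 6 and AOC1 number 10 of 10613. Over all genes tested, 4.33% were called lower with everolimus in A431 at an adjusted p of 0.05 in limma and 2.39% higher, and 13.5% had the 3 everolimus arrays all below the 3 DMSO arrays. Leaving out any 1 array, or changing the normalization, kept the 3 differences between -1.28 and -1.07 for PIGR, -1.24 and -1.17 for GPR15LG, and -1.11 and -0.91 for AOC1.

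In HSC-1 none of the 3 genes was lower with everolimus, and all 3 lay near or below the array median. PIGR had levels of 4.15, 4.35 and 4.08 in HSC-1 with everolimus, against 3.67, 3.71 and 3.47 in HSC-1 with DMSO. The 3 everolimus arrays were all above the 3 DMSO arrays, with a gap of 0.37 and a difference of 0.58 ± 0.13 (1.49-fold higher), though all 6 lay below their array medians. GPR15LG had levels of 4.77, 4.48 and 4.89 in HSC-1 with everolimus, against 4.58, 4.75 and 4.50 in HSC-1 with DMSO, and the groups overlapped (0.10 ± 0.11). AOC1 had levels of 4.38, 4.76 and 4.44 in HSC-1 with everolimus, against 3.93, 4.52 and 4.47 in HSC-1 with DMSO. Its groups overlapped as well (0.22 ± 0.15), and the array at 3.93, HSC-1 DMSO replicate 1, was the lowest. Over the alternatives the HSC-1 difference of AOC1 ran from 0.03, without that array, to 0.33, and was 0.10 without HSC-1 everolimus replicate 2. That of GPR15LG ran from 0.01, without HSC-1 everolimus replicate 3, to 0.22, without HSC-1 everolimus replicate 2, and was 0.05 without HSC-1 DMSO replicate 3 and 0.17 without HSC-1 DMSO replicate 2. Among all genes tested, 13.7% had the 3 everolimus arrays above the 3 DMSO arrays in HSC-1, 7.34% were called higher and 11.3% lower. Of 10 tested squamous markers, 2 rose and 2 fell in HSC-1. Of 12 columnar and intestinal markers, 3 fell and 0 rose: KRT18, EPCAM and OLFM4. XBP1 fell, as 1 of 4 plasma cell and B cell markers, and CD68, as 1 of 5 leukocyte markers. Their part in the HSC-1 differences of the 3 genes was not tested.

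**Figure D2:**
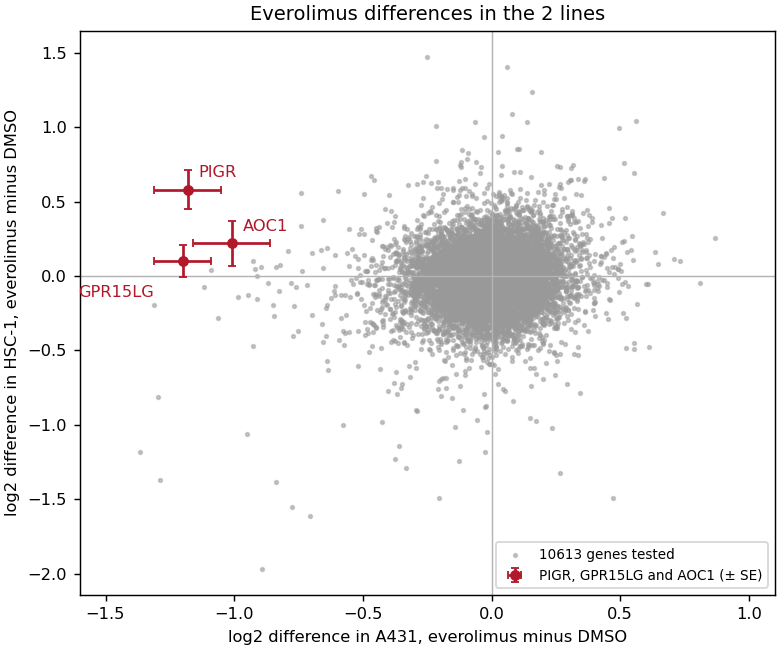
Log2 difference between everolimus and DMSO in A431 (horizontal) and HSC-1 (vertical) for the 10613 genes tested (grey) and for PIGR, GPR15LG and AOC1 (red, bars ± moderated SE). The 3 genes lie at -1.20 to -1.01 in A431 and at 0.10 to 0.58 in HSC-1.

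The HSC-1 difference minus the A431 difference was 1.76 ± 0.18 for PIGR, 1.31 ± 0.15 for GPR15LG and 1.23 ± 0.21 for AOC1. Over all genes, 10.5% were called in this comparison. In DMSO, HSC-1 levels were 8.32-fold below A431 levels for PIGR (-3.06 ± 0.13), 5.71-fold for GPR15LG (-2.51 ± 0.11) and 7.15-fold for AOC1 (-2.84 ± 0.15), where 30.2% of all genes were called lower in HSC-1 and 32.9% had the 3 HSC-1 arrays all below the 3 A431 arrays. With everolimus in both lines, the HSC-1 levels were 2.46-fold below those of A431 for PIGR (-1.30), 2.31-fold for GPR15LG (-1.21) and 3.05-fold for AOC1 (-1.61), and again no array overlapped, as for 33.1% of genes. PIGR lay below the array median on every HSC-1 array and passed the level filter through A431, and GPR15LG and AOC1 lay near the median in HSC-1. How far background sets these HSC-1 levels, and so the folds, was not tested. The A431 arrays with DMSO enter the A431 difference, the difference between the lines and the DMSO comparison alike. A few markers of other cell types were also lower in HSC-1 than in A431 with DMSO. They were CD68 (7.99 in HSC-1 and 10.71 in A431) and CD14 (4.16 in HSC-1 and 4.57 in A431) of 5 tested leukocyte markers, XBP1 (6.97 in HSC-1 and 7.84 in A431) and SDC1 (8.76 in HSC-1 and 8.97 in A431) of 4 tested plasma cell and B cell markers, and LUM (2.85 in HSC-1 and 4.89 in A431), the 1 tested marker of fibroblasts and endothelium. LUM and CD14 lay below the array median on every HSC-1 array and passed the level filter through A431. Other markers were higher in HSC-1, where 3100 of 10613 genes were called higher. MITF, of 2 tested melanocyte markers, averaged 5.84 in HSC-1 and 5.50 in A431. Of 10 tested squamous markers 6 were higher and 3 lower, and of 12 columnar and intestinal markers 2 were higher and 1 lower. The part of these markers in the line differences was not tested.

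From low to high, PIGR ran from HSC-1 with DMSO (3.62 ± 0.13, SD, n = 3) over HSC-1 with everolimus (4.19 ± 0.14) and A431 with everolimus (5.49 ± 0.14) to A431 with DMSO (6.67 ± 0.21), and no neighbouring groups overlapped. GPR15LG followed the same order, at 4.61 ± 0.13, 4.71 ± 0.21, 5.92 ± 0.06 and 7.12 ± 0.03, and the HSC-1 groups were not separated beyond their spread. AOC1 also followed it, at 4.31 ± 0.32, 4.53 ± 0.21, 6.14 ± 0.20 and 7.14 ± 0.13, again without separation of the HSC-1 groups.

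The values that chose the 3 genes can be set among those of all genes as a description. In A431, 10 genes had a decrease of at least 2-fold with everolimus, and 137 genes were at least 4-fold lower in HSC-1 than in A431 with DMSO. Both limits were set after the values were seen, and they were met by 4 genes: PIGR, GPR15LG, AOC1 and KLK13, an epidermal serine protease. AOC1 missed the first limit without A431 everolimus replicate 2 (-0.91) and without A431 DMSO replicate 3 (-0.94). KLK13 averaged 6.50 ± 0.08 in A431 with everolimus and 7.81 ± 0.13 in A431 with DMSO, and 3.98 ± 0.23 in HSC-1 with everolimus and 4.17 ± 0.17 in HSC-1 with DMSO (SD, n = 3).

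Likeness of pattern was measured as the root mean square difference between log2 profiles over the 12 arrays, each centred on its own mean, and is a description. Nearest to PIGR were VGLL1, a cofactor of TEAD transcription factors (0.26), AOC1 (0.28), GPR15LG (0.29) and ACER2, an alkaline ceramidase (0.30), against a median of 1.20 over all genes tested. VGLL1 had the same signs as PIGR, with -0.74 ± 0.07 in A431 and 0.56 ± 0.07 in HSC-1, and lay above the array median on all 12 arrays. The genes nearest to GPR15LG were GDPD2, a glycerophosphodiester phosphodiesterase (0.19), KRT4, a keratin of mucosal squamous epithelium (0.20), SPP1, the secreted phosphoprotein osteopontin (0.22), and CFAP47 (0.27), against a median of 1.04. KRT4 averaged 8.74 ± 0.07 in A431 with everolimus and 9.53 ± 0.03 in A431 with DMSO, a difference of -0.79 ± 0.05, and 0.17 ± 0.05 was its difference in HSC-1. For AOC1 the nearest were HCAR2, a receptor for niacin and hydroxybutyrate (0.24), ACSL1, which activates long-chain fatty acids (0.26), ACER2 (0.27) and PIGR (0.28), against a median of 1.19. Counted from GPR15LG, PIGR was number 9 (0.29) and AOC1 number 12 (0.30), and counted from AOC1, GPR15LG was number 9 (0.30). PIGR, GPR15LG and AOC1 were chosen on these arrays, so nothing is read from their nearness to each other. CFAP47 and SPP1 lay below the array median on all 6 HSC-1 arrays, and CFAP47 also on the 3 A431 arrays with everolimus.

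**Figure D3:**
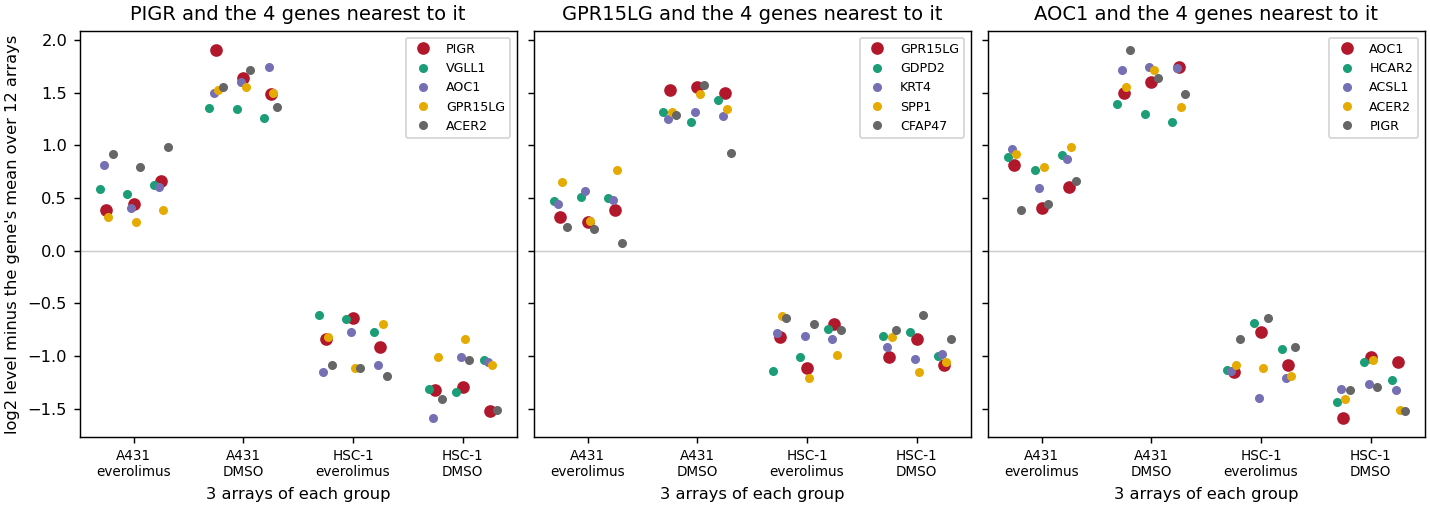
Log2 level minus the gene's own mean over 12 arrays, for each of the 3 genes (large red points) and the 4 genes nearest to it, with 3 arrays per group. All genes shown lie above their mean in both A431 groups and below it in both HSC-1 groups, with A431 DMSO arrays above A431 everolimus arrays within each gene.

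Genes around these functions were taken from 9 lists of 278 genes, of which 170 had a named probe set and 138 were tested. The lists were chosen with earlier results of these data known. The immunoglobulin receptor crosses the cell in vesicles. Of 10 tested transcytosis and vesicle traffic genes in A431, 0 passed with limma (1 at an unadjusted p under 0.05, and 0 without the intensity trend), where 4.33% of all genes fell and 2.39% rose, and the median log2 difference was -0.01, against 0.00 for all genes. RAB11FIP2, an adaptor of recycling endosomes, had the smallest p, with 0.24 ± 0.08 (adjusted p = 0.103, in a range from 0.0419 with only the 6 A431 arrays to 0.265). In HSC-1, YES1, a Src family kinase tied to transcytosis, fell by 0.22 ± 0.06 (adjusted p = 0.00829) and the other 9 did not pass, so that 10% of the list fell beside 11.3% of all genes. JCHAIN, which joins the immunoglobulins that the receptor binds, is not analysed here.

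PIGR is a known target of the NF-kappaB and interferon pathways. Of 20 tested regulators in A431, 3 fell and 0 rose (15% and 0%, beside 4.33% and 2.39% of all genes), with a median of -0.05. The double-stranded RNA receptor TLR3 fell by 0.38 ± 0.09 (adjusted p = 0.0152), the interferon regulatory factor IRF1 by 0.28 ± 0.08 (adjusted p = 0.0401) and the transcription factor STAT3 by 0.22 ± 0.04 (adjusted p = 0.00235). IRF1 averaged 7.17 ± 0.05 in A431 with everolimus and 7.45 ± 0.10 in A431 with DMSO, and its difference in HSC-1 was 0.07 ± 0.08 (adjusted p = 0.63). Adjusted p for TLR3 spanned 0.00209 to 0.0915 over the alternatives and missed the threshold with A431 DMSO replicate 1 (0.059), A431 DMSO replicate 2 (0.062) or A431 everolimus replicate 2 (0.0915) left out. The IRF1 call was lost in 8 of 20 alternatives, among them no level filter (0.0575), no intensity trend (0.0806) and leaving out A431 everolimus replicate 1 (0.0986), 2 (0.146) or 3 (0.0605) or A431 DMSO replicate 1 (0.158) or 2 (0.154), and its lowest adjusted p was 0.0203.

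In HSC-1, 8 of the same 20 regulators fell and 0 rose (40% and 0%, beside 11.3% and 7.34% of all genes). Their median was -0.17, against -0.02 for all genes. The part of these regulators in the differences of PIGR was not tested in either line. The lipopolysaccharide receptor TLR4 fell by 0.52 ± 0.15 (adjusted p = 0.019), the adaptor MYD88 by 0.48 ± 0.08 (adjusted p = 0.000305), TLR3 by 0.44 ± 0.09 (adjusted p = 0.00203) and USF1, a factor that binds E-boxes, by 0.34 ± 0.07 (adjusted p = 0.0017). RELA, an NF-kappaB subunit, fell by 0.26 ± 0.05 in HSC-1 and had 0.00 ± 0.05 in A431, and the test of that difference gave -0.26 ± 0.07 (adjusted p = 0.0162), which missed the threshold without the intensity trend (0.0546) or HSC-1 DMSO replicate 3 (0.0501) and was otherwise as low as 0.00612. TLR4 differed between the lines by -0.85 ± 0.21 (adjusted p = 0.0137), but in A431 it lay above the array median on 1 of 6 arrays and passed the level filter through HSC-1. Its HSC-1 call was lost without HSC-1 DMSO replicate 2 (0.124) or HSC-1 everolimus replicate 1 (0.0623) or 3 (0.083), and its lowest adjusted p was 0.00978.

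For the peptide GPR15LG, the receptor itself was low. GPR15 averaged 3.74 ± 0.11 in A431 with everolimus, 3.58 ± 0.09 in A431 with DMSO, 3.67 ± 0.08 in HSC-1 with everolimus and 3.88 ± 0.13 in HSC-1 with DMSO, below the array median on all 12 arrays, and was not tested. SUSD2, a membrane protein described as a partner of the peptide, had 0.14 ± 0.08 in A431 (adjusted p = 0.371) and -0.18 ± 0.08 in HSC-1 (adjusted p = 0.131). Of 6 tested genes in the list of receptors, partners and the aryl hydrocarbon receptor pathway that controls GPR15 in T cells, 1 fell in A431, ARNT, the partner of that receptor, by 0.23 ± 0.06 (adjusted p = 0.0184), and 1 rose in HSC-1, TIPARP, its target, by 0.26 ± 0.05 (adjusted p = 0.000984). These counts are 16.7% of the list, beside 4.33% of all genes that fell in A431 and 7.34% that rose in HSC-1. The A431 adjusted p of ARNT missed the threshold with no intensity trend (0.0981) and with A431 DMSO replicate 1 (0.0927) or A431 everolimus replicate 2 (0.088) left out, was as low as 0.00699 otherwise, and ARNT differed between the lines by 0.31 ± 0.08 (adjusted p = 0.0159, and 0.0767 without the intensity trend, and its lowest adjusted p was 0.00602).

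GPR15LG is also raised in psoriatic skin, and alarmins of that response fell in both lines. Of 16 tested genes of the interleukin 17 and psoriasis response, 4 fell and 0 rose in A431 (25% and 0%), and 5 fell and 0 rose in HSC-1 (31.2% and 0%), with a median of -0.20 in each line. Over all genes, 4.33% fell and 2.39% rose in A431, and 11.3% fell and 7.34% rose in HSC-1. The antimicrobial protein S100A7 fell by 1.29 ± 0.14 in A431 and by 1.37 ± 0.14 in HSC-1, and S100A7 lay below the array median on the 3 A431 arrays with everolimus. The alarmins S100A8 and S100A9 fell by 0.89 ± 0.08 and 0.71 ± 0.08 in A431 (adjusted p = 1.22e-06 and 8.25e-06), and in HSC-1 S100A8 fell by 1.97 ± 0.08 and S100A9 fell by 1.61 ± 0.08. Their differences between the lines were -1.08 ± 0.11 and -0.91 ± 0.11 (adjusted p = 7.96e-06 and 2.99e-05), opposite in sign to those of PIGR, GPR15LG and AOC1. The receptor subunit IL17RC fell by 0.35 ± 0.09 in A431 (adjusted p = 0.0168, between 0.015 and 0.0824 over the alternatives, with 0.0824 when A431 DMSO replicate 2 and 0.0721 when A431 everolimus replicate 3 was left out). The HSC-1 count was 8 with no level filter.

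AOC1 acts on putrescine, and ODC1, which makes putrescine, rose in A431. ODC1 averaged 9.18 ± 0.08 in A431 with everolimus and 8.81 ± 0.08 in A431 with DMSO (0.37 ± 0.05, adjusted p = 0.000151), and its difference in HSC-1 was -0.10 ± 0.05 (adjusted p = 0.196). The test between the lines gave -0.47 ± 0.07 for ODC1 (adjusted p = 0.000383). A relation of ODC1 to AOC1 was not tested, and putrescine was not measured. ODC1 was the 1 gene of 16 tested in polyamine synthesis and hypusination that passed in A431 (6.25% rose and 0% fell, beside 2.39% and 4.33% of all genes, median -0.01), and that count was 3 with quantile normalization applied again. In HSC-1, 4 of the 16 fell and 0 rose (25% and 0%, beside 11.3% and 7.34% of all genes, median -0.16). They were the spermidine synthase SRM (-0.32 ± 0.06, adjusted p = 0.00047), the decarboxylase AMD1 (-0.26 ± 0.07, adjusted p = 0.0115), the antizyme OAZ1 (-0.19 ± 0.04, adjusted p = 0.000962) and the agmatinase AGMAT (-0.42 ± 0.14, adjusted p = 0.046). The AMD1 call was lost without the intensity trend (0.0619), without HSC-1 DMSO replicate 1 (0.05) and without HSC-1 everolimus replicate 3 (0.0592), and its lowest adjusted p was 0.0042. The AGMAT call was lost in 12 of 20 alternatives, at most at 0.233 without HSC-1 DMSO replicate 3, and also without each A431 everolimus array (0.0512, 0.0531 and 0.0515 for replicates 1, 2 and 3), A431 DMSO replicate 1 (0.0558), HSC-1 DMSO replicate 2 (0.0813) or HSC-1 everolimus replicate 1 (0.161) or 3 (0.0984), and its lowest adjusted p was 0.0193. DHPS, which starts the hypusine modification of eIF5A, differed between the lines by 0.40 ± 0.11 (adjusted p = 0.0201), a call lost without the intensity trend (0.0551), A431 DMSO replicate 2 (0.0535), A431 everolimus replicate 2 (0.0529) or HSC-1 DMSO replicate 1 (0.0606), and its lowest adjusted p was 0.00915.

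A pair of other breakdown genes fell in A431. Of 11 tested genes of polyamine and histamine breakdown and transport, 2 fell and 0 rose in A431 (18.2% and 0%, beside 4.33% and 2.39% of all genes, median -0.06). SAT1, the acetyltransferase that starts polyamine breakdown, fell by 0.52 ± 0.06 in A431 (adjusted p = 1.81e-05) and by 0.37 ± 0.06 in HSC-1 (adjusted p = 0.000288). MAOA, which oxidises monoamines rather than polyamines, averaged 8.01 ± 0.03 in A431 with everolimus and 8.54 ± 0.04 in A431 with DMSO (-0.53 ± 0.04, adjusted p = 7.12e-07), had -0.02 ± 0.04 in HSC-1, and differed between the lines by 0.51 ± 0.06 (adjusted p = 3.96e-05). SMOX, the spermine oxidase, had -0.10 ± 0.09 in A431 and 0.05 ± 0.09 in HSC-1 and passed in neither line. The histamine genes HDC, which makes histamine, and HNMT, which methylates it, lay below the array median on all 12 arrays. In HSC-1, 3 of the 11 fell and 0 rose (27.3% and 0%, beside 11.3% and 7.34% of all genes, median -0.08): SAT1, the mitochondrial aldehyde dehydrogenase ALDH2 (-0.37 ± 0.06, adjusted p = 0.000443) and the polyamine transporter ATP13A3 (-0.17 ± 0.05, adjusted p = 0.0317). The ATP13A3 call was lost in 6 of 20 alternatives: no intensity trend (0.113), leaving out HSC-1 DMSO replicate 1 (0.0835), 2 (0.0745) or 3 (0.075), and leaving out HSC-1 everolimus replicate 1 (0.0844) or 3 (0.107), and its lowest adjusted p was 0.0095. The difference of ALDH2 between the lines was -0.39 ± 0.09 (adjusted p = 0.00903).

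Of 32 listed genes that handle copper, the metal of diamine oxidase, 17 were tested. The copper transporters ATP7A, ATP7B, SLC31A1 and SLC31A2 and the enzymes SOD1 and SOD3 are not analysed here. Of 17 tested, 1 rose and 1 fell in A431 (5.88% each, beside 2.39% and 4.33% of all genes), the metallothioneins MT2A (0.18 ± 0.05, adjusted p = 0.0217) and MT1X (-0.19 ± 0.05, adjusted p = 0.0186), and neither passed without the intensity trend (0.124 and 0.135). MT2A also missed the threshold when A431 DMSO replicate 2 (0.138) or A431 everolimus replicate 2 (0.081) was left out, and its adjusted p was as low as 0.00964. MT1X missed it when each of these was left out: A431 everolimus replicate 1 (0.0853) or 2 (0.0772), A431 DMSO replicate 1 (0.0616), 2 (0.0603) or 3 (0.0542), and its adjusted p was as low as 0.00277. In HSC-1, also 5.88% of the list rose and fell, beside 7.34% and 11.3% of all genes. LOXL2, a copper enzyme that cross-links collagen, fell by 0.66 ± 0.10 (adjusted p = 0.000162), and MT1X rose by 0.17 ± 0.05 (adjusted p = 0.0157), a call lost without the intensity trend (0.0947), with quantile normalization applied again (0.0585) and without HSC-1 DMSO replicate 3 (0.0732) or HSC-1 everolimus replicate 3 (0.0737), and its lowest adjusted p was 0.00297. LOXL1 and LOXL2 differed between the lines by -0.54 ± 0.14 and -0.52 ± 0.14 (adjusted p = 0.0202 and 0.0254). LOXL1 missed the threshold when A431 DMSO replicate 3 (0.057) or HSC-1 DMSO replicate 1 (0.0536) was left out, and its adjusted p was as low as 0.0138. LOXL2 missed it in the same way for A431 DMSO replicate 2 (0.0599) or 3 (0.0616), A431 everolimus replicate 1 (0.0747), HSC-1 DMSO replicate 2 (0.0642) or 3 (0.0691) or HSC-1 everolimus replicate 2 (0.0652), and its adjusted p was as low as 0.0126.

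Among other secreted and surface genes of mucosal defence, CEACAM6 and CEACAM5 fell in A431 and differed between the lines with the same sign as the 3 genes. These adhesion proteins of mucosal epithelium fell by 0.99 ± 0.10 and 0.95 ± 0.10 in A431 (adjusted p = 4.72e-06 and 9.37e-06), had -0.14 ± 0.10 and -0.13 ± 0.10 in HSC-1, and differed between the lines by 0.84 ± 0.14 and 0.82 ± 0.15 (adjusted p = 0.000821 and 0.00126). Unlike the 3 genes, their DMSO levels were higher in HSC-1, at 5.93 ± 0.12 for CEACAM6 and 7.08 ± 0.05 for CEACAM5, against 5.40 ± 0.14 and 5.56 ± 0.08 in A431. SLPI, an antiprotease of mucosal secretions, fell in both lines, by 0.52 ± 0.04 in A431 and 0.61 ± 0.04 in HSC-1 (adjusted p = 5.87e-07 and 1.81e-08). The acute phase protein SAA1 rose in A431 by 0.53 ± 0.06 (adjusted p = 7.27e-06). Of 21 tested genes of this list, 3 fell and 1 rose in each line (14.3% and 4.76%), with a median of -0.09 in each, where 4.33% and 2.39% of all genes did so in A431 and 11.3% and 7.34% in HSC-1. In HSC-1 the risen gene was the oxidase DUOX1 (0.34 ± 0.07), and the iron-sequestering lipocalin LCN2 (-0.76 ± 0.08) and the trefoil peptide TFF1 (-0.41 ± 0.12, adjusted p = 0.0239) fell with SLPI. The TFF1 call was lost without HSC-1 DMSO replicate 2 (0.0597) or 3 (0.0765) or HSC-1 everolimus replicate 1 (0.114), and its lowest adjusted p was 0.0155.

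**Figure D4:**
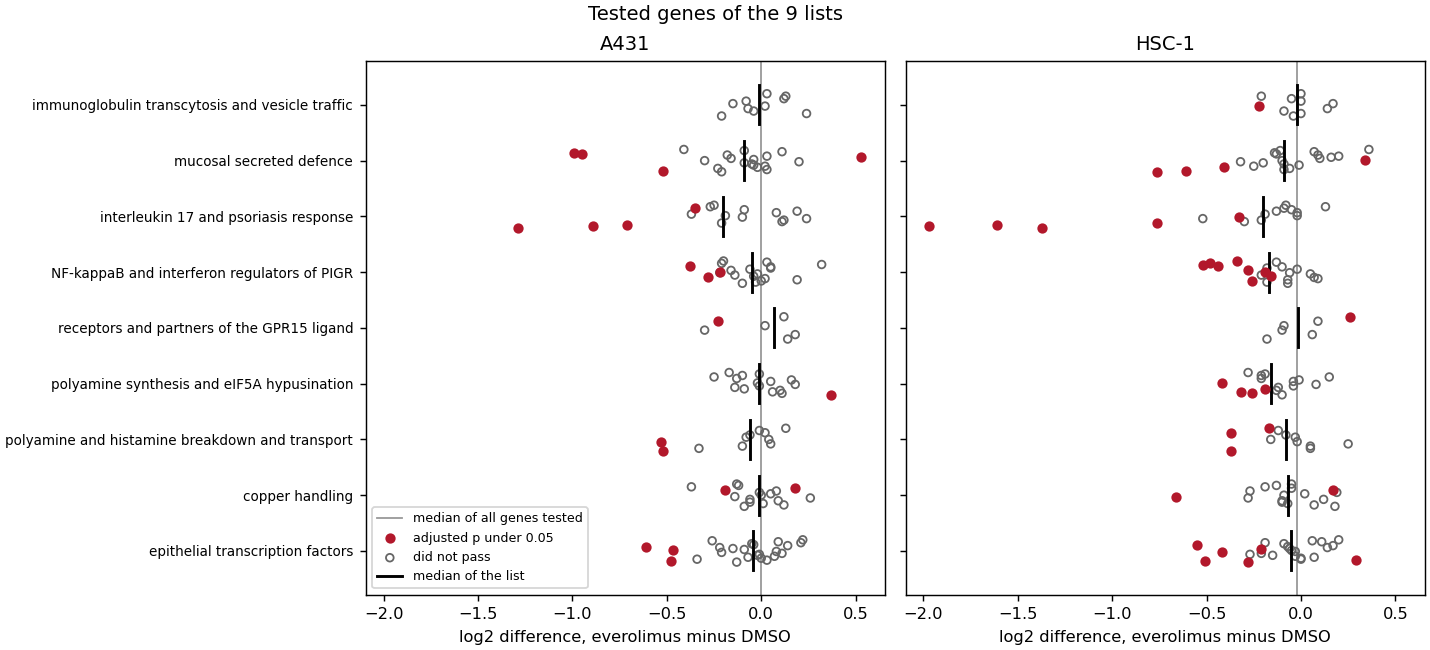
Log2 difference between everolimus and DMSO in A431 (left) and HSC-1 (right) for each tested gene of the 9 lists, with filled points for an adjusted p under 0.05, open points for genes that did not pass, black bars for the median of a list and a grey line for the median of all genes tested. CEACAM6, CEACAM5 and the S100 alarmins lie farthest to the left in A431, and the alarmins in HSC-1.

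Of 24 tested epithelial transcription factors, 3 fell and 0 rose in A431 (12.5% and 0%, beside 4.33% and 2.39% of all genes, median -0.04). SOX2, a factor of stem and squamous cells, fell by 0.61 ± 0.10 (adjusted p = 0.000665), OVOL2, an epithelial zinc finger factor, by 0.47 ± 0.10 (adjusted p = 0.00823) and GRHL1, a grainyhead factor of the epidermis, by 0.48 ± 0.12 (adjusted p = 0.0224). In HSC-1, 5 fell and 1 rose (20.8% and 4.17%, beside 11.3% and 7.34% of all genes, median -0.06), among them SOX15 (-0.55 ± 0.06, adjusted p = 7.55e-06), GRHL1 (-0.51 ± 0.12, adjusted p = 0.00639), FOXN1 of the hair follicle and epidermis (-0.42 ± 0.13, adjusted p = 0.0256) and, as the gene that rose, GRHL2 (0.29 ± 0.04, adjusted p = 0.000155). SOX15 differed between the lines by -0.51 ± 0.09 (adjusted p = 0.00104) and SOX2 by 0.54 ± 0.14 (adjusted p = 0.0173, 0.0527 with HSC-1 DMSO replicate 1 left out, and as low as 0.00223). The GRHL1 call in A431 was lost without the intensity trend (0.0597), A431 everolimus replicate 1 (0.0822) or 3 (0.0648) or A431 DMSO replicate 1 (0.0778) or 2 (0.0776), and its lowest adjusted p was 0.00306. The FOXN1 call was lost with only the 6 HSC-1 arrays (0.0534) and without HSC-1 DMSO replicate 1 (0.153) or HSC-1 everolimus replicate 1 (0.092) or 3 (0.0808), and its lowest adjusted p was 0.0135. The A431 count was 5 with only the 6 A431 arrays.

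The 4 nearest protein-coding genes on each side of PIGR, GPR15LG and AOC1 on chromosomes 1, 10 and 7, looked up after the values were seen, numbered 24, of which 15 had a named probe set and 11 were tested. In A431, 0 of 11 passed with limma (1 at an unadjusted p under 0.05, and 0 without the intensity trend), where 4.33% of all genes fell and 2.39% rose, and the log2 differences ran from -0.15 to 0.24. TSPAN14, near GPR15LG, had the lowest of these (adjusted p = 0.0799) and passed with quantile normalization applied again (0.0484) and without A431 DMSO replicate 3 (0.0204), and reached 0.3 at most. In HSC-1, 2 of 11 passed, where 7.34% of all genes rose and 11.3% fell. There C1orf116, the second gene after PIGR, rose by 0.49 ± 0.05 (adjusted p = 9.03e-07), and TSPAN14 fell by 0.25 ± 0.05 (adjusted p = 0.00122). A relation of C1orf116 to PIGR was not tested. C1orf116 averaged 9.08 ± 0.02 in HSC-1 with everolimus and 8.58 ± 0.06 in HSC-1 with DMSO, had -0.03 ± 0.05 in A431, and differed between the lines by 0.52 ± 0.07 (adjusted p = 6.32e-05). FCMR, the IgM receptor gene next to PIGR, averaged 3.92 to 4.29 over the 4 groups and was not tested. IL24, a cytokine gene of the same cluster, averaged 7.96 ± 0.06 in HSC-1 with everolimus and 8.48 ± 0.09 in HSC-1 with DMSO. The arrays did not overlap, but its difference of -0.52 ± 0.20 did not pass (adjusted p = 0.0795, at most 0.191). It passed with only the 6 HSC-1 arrays (5.16e-05). Dropping replicate 2 of either A431 group also brought it under the threshold (0.0341 for DMSO and 0.023 for everolimus). In A431 all 6 IL24 arrays were below their medians (3.67 ± 0.46 with DMSO), so no size is given for its line difference. The A431 difference of 0.24 given above is that of IL24.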

How the data were processed

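RNA of 12 samples was measured on Affymetrix arrays. The authors deposited log2 values for each probe set, and the submitters' processing notes name RMA and Affymetrix Expression Console. Not given in the sources used here are versions, probe set level and build. Because RMA equalises the arrays, an overall shift in RNA content could not be seen. The number of arrays limits the precision. Of 53617 probe sets, 16098 had 1 gene symbol, 0 had several and 37519 had no name here. Current symbols came from RefSeq GRCh38.p14, where all 16098 Entrez identifiers were found.

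Where a gene had several probe sets, that with the highest mean was used. Testing required at least 3 arrays above their own median over all probe sets. Group means of all 12 arrays were fitted with limma 3.58.1 in R 4.3.3 (lmFit, and eBayes with an intensity trend). With 8 residual degrees of freedom, p-values were adjusted by Benjamini-Hochberg over 10613 genes at a threshold of 0.05. The members and the lists were chosen with earlier results of these data known, and no p is given for the members. Genes were named by rule: up to 4 passing members per list and line with the largest difference, or that with the smallest p, up to 2 per list for the difference between lines, fixed partners, and the 4 nearest profiles per member. The partners JCHAIN, AOC2, AOC3, NFKBIA and ELF3 are not analysed here. P-values reflect only how these arrays vary, which may be technical. Alternatives were a replicate block, filters, normalizations, no trend, the mean of probe sets, 6 arrays alone (not for the difference between the lines) and leaving out each array.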

Additional observations from a re-analysis of the deposited data

Results flagged for a closer look

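PIGR lay apart in opposite directions in the lines, with all everolimus arrays below the DMSO arrays in A431 and all above them in HSC-1, and the difference of 1.76 between the lines was not tested. Of all genes tested, 13.5% had the everolimus arrays all below the DMSO arrays in A431, and 13.7% had them all above in HSC-1. These values of PIGR chose the gene, and all 6 HSC-1 arrays lay below the array median. The everolimus difference in HSC-1 minus that in A431 passed the threshold for 27 of the 138 tested genes of the lists. Of all genes tested, 10.5% passed it. Of the 27 list genes, 24 are named in the text, and C1orf116 beside PIGR (0.52) makes 25. The differences were positive for CEACAM6 (0.84), CEACAM5 (0.82), SOX2 (0.54), MAOA (0.51), DHPS (0.40), DUOX1 (0.37), MT1X (0.36), ARNT (0.31) and GRHL2 (0.26). They were negative for S100A8 (-1.08), S100A9 (-0.91), TLR4 (-0.85), LCN2 (-0.55), LOXL1 (-0.54), LOXL2 (-0.52), SOX15 (-0.51), ODC1 (-0.47), ALDH2 (-0.39), SRM (-0.39), SAA1 (-0.36), AMD1 (-0.36), ATP13A3 (-0.30), RELA (-0.26) and MT2A (-0.22). Among those whose line difference is not given above, 4 missed the threshold in some alternatives. Without the intensity trend the adjusted p was 0.0805 for ATP13A3, 0.0706 for GRHL2, 0.0883 for AMD1 and 0.127 for MT2A, the highest of each, and the lowest were 0.00379, 0.00472, 0.0057 and 0.0115. AMD1 also missed it without A431 DMSO replicate 3 (0.0537). MT2A missed it when A431 everolimus replicate 2 (0.0646), A431 DMSO replicate 2 (0.0899), HSC-1 everolimus replicate 1 (0.0585) or 2 (0.0762) or HSC-1 DMSO replicate 2 (0.0732) or 3 (0.0701) was left out.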

How the results depend on the processing

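The 12 differences of PIGR, GPR15LG and AOC1 kept their sign in all alternatives run. They moved by less than the gene's SD pooled over the 4 groups, and some by more than the SD of 1 group. The small HSC-1 differences moved most for their size. That of GPR15LG (0.10) ran from 0.01 to 0.22, and that of AOC1 (0.22) from 0.03 to 0.33. The number of genes called in A431, 714, was 438 without the intensity trend and 456 to 836 when 1 array was left out; it was lowest without A431 DMSO replicate 2 and 458 without A431 DMSO replicate 1. The other 3 comparisons stayed within 1.5 times of 1977 (HSC-1), 1118 (difference between the lines) and 6303 (lines in DMSO). Same-numbered arrays did not deviate together (correlations of -0.155 to 0.075). Whether equal numbers mark a shared culture or batch cannot be told from this or from the labels. The replicate block gave 621 calls in A431, 1845 in HSC-1, 1005 for the difference between the lines and 6212 between the lines in DMSO. Among named genes of the lists, IRF1 (adjusted p = 0.0605) and AGMAT (0.0586) then missed the threshold and no other. Among lists in A431, leaving out 1 array gave 1 to 3 regulators of PIGR (1 when A431 everolimus replicate 2 or A431 DMSO replicate 1 or 2 was left out), 0 to 2 GPR15 ligand partners (0 when A431 everolimus replicate 2 or A431 DMSO replicate 1 was left out, 2 for A431 everolimus replicate 3), 1 to 2 polyamine synthesis genes (2 without HSC-1 DMSO replicate 2 or HSC-1 everolimus replicate 2 or 3) and 0 to 3 copper genes (0 when A431 everolimus replicate 2 or A431 DMSO replicate 2 was left out, 1 for A431 everolimus replicate 1 or A431 DMSO replicate 1 or 3). Copper genes in HSC-1 numbered 1 to 3 (1 without HSC-1 DMSO replicate 3). Without the intensity trend, the counts were 0 for the GPR15 ligand partners and 0 for copper in A431, and 2 for polyamine synthesis in HSC-1. Polyamine synthesis in A431 had 2 calls with the filter at the 60th percentile, 3 with quantile normalization again, 2 with median centring and 2 with only 6 arrays. With only 6 arrays, transcytosis in A431 had 1 call and epithelial transcription factors 5. Without the level filter, the psoriasis response in HSC-1 had 8. Of 73 calls of named genes in the lists and beside the 3 genes, 49 were kept in all alternatives and 0 reversed. The cause of these changes was not tested. The HSC-1 levels of the 3 genes lie close to or below the array median, and how far background sets them was not tested.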
